A study of Rattus norvegicus with 6 samples.

Results

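Antioxidant and glutathione genes were examined in RNA sequencing libraries of cells grown from the aorta of rats of 2 inbred strains. SHR, the spontaneously hypertensive rat, develops high blood pressure as it grows up, and WKY, the Wistar Kyoto rat, is the related strain used as its normotensive counterpart. The members were taken by symbol: superoxide dismutases Sod1 and Sod3, catalase, glutathione peroxidases, peroxiredoxins, thioredoxins and their reductases, sulfiredoxin, the enzymes that make and reduce glutathione, glutathione transferases of the soluble and membrane-bound families, Nqo1, the haem oxygenases, and the regulator genes Nfe2l2 and Keap1. The symbols matched 50 of 16770 genes, of which 48 passed the filter on low counts. The other two were Gpx2, with at most 4 counts in a library, and Gstm6, with 0 counts in all 6 libraries.

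The WKY and the SHR group each had 3 libraries from 3-month-old rats. Pieces of the proximal aorta had been laid with the inner side down, and the cells that grew out, labelled endothelial, were kept in a serum-containing endothelial medium supplemented with growth factors. Both strains had 2 libraries in batch 1 (replicates 1 and 2) and 1 library in batch 2 (replicate 3). The labels give the batch as a number only, and do not say whether it stands for another culture, extraction or sequencing run, nor whether the libraries of a strain came from separate animals. The p-values therefore measure the spread between these libraries, which may be technical.

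Cells remove superoxide with superoxide dismutases, which turn it into hydrogen peroxide, and remove peroxides with catalase, with glutathione peroxidases that consume glutathione, and with peroxiredoxins that are recharged by thioredoxin and thioredoxin reductase. Glutathione is made by glutamate-cysteine ligase (subunits Gclc and Gclm) and glutathione synthetase, and glutathione transferases attach it to reactive compounds. Many of these genes are targets of the transcription factor NRF2 (Nfe2l2), which KEAP1 marks for degradation until oxidants or electrophiles modify it, and which binds the antioxidant response element in promoters.

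Levels are given as CPM, the count of a gene scaled to a common library size, with library sizes corrected by TMM. Library totals lay between 18462051 and 19947278 counts, and the floor of a library, set at 3 counts because a gene with 0 counts may still have that many, was 0.15 to 0.19 CPM (counting error only). Of the defining endothelial markers, Cdh5 had at most 0.10 CPM and Tie1 at most 0.05 CPM, below that floor in every library. Pecam1 had 2 to 7 counts in WKY and 9 to 42 counts in SHR, up to 2.18 CPM. Only 3 of the 10 endothelial markers found in the table passed the filter on low counts, which were Tek (0.44 to 9.38 CPM), Vwf (0.10 to 0.94 CPM) and Egfl7 (6.39 to 27.2 CPM). The summed level of the 10 markers was 18.7 to 23.9 CPM in WKY and 19.6 to 37.6 CPM in SHR. Fibroblast markers summed to 4590 to 13616 CPM in WKY and 9309 to 11391 CPM in SHR, and smooth muscle markers to 749 to 8148 CPM in WKY and 838 to 1887 CPM in SHR. The levels below are thus those of cells in which mesenchymal transcripts were far more frequent than endothelial ones. In bulk libraries of this kind, fewer cells of a type and less RNA per cell cannot be told apart.

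Between strains, 0 of the 48 tested members were higher and 0 were lower in SHR by the quasi-likelihood test of edgeR with the batch as a term (adjusted p below 0.05 over all 12614 genes tested), where 0.103% of all genes were called higher and 0.151% lower. Before adjustment, 5 members had p below 0.05 with a higher level in SHR (10.4%, against 6.1% of all genes) and 4 with a lower one (8.33%, against 7.18%). The DESeq2 Wald test called 4 members higher (8.33%, against 2.85% of all genes) and 2 lower (4.17%, against 2.66%). All SHR libraries lay above all WKY libraries in 3 members (6.25%, against 4.51% of all genes) and below them in 1 (2.08%, against 5.3%). The edgeR shares were near those of all genes, so the number of members involved is not itself a result about them. The median log2 fold change of the tested members, SHR over WKY, was 0.12, beside -0.02 for all genes.

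Some markers of cell types and of growth also had a small p between strains before adjustment. Of 9 fibroblast markers, 6 had a higher level in SHR with an unadjusted p below 0.05 (Pdgfra, Dcn, Lum, Dpt, Tcf21 and Twist2). The share over all genes was 6.1%. In these 6 markers all SHR libraries lay above all WKY libraries, as in 4.51% of all genes. Tcf21 was called by edgeR (adjusted p = 0.0373), with 0, 1 and 2 counts in WKY replicates 1, 2 and 3 and 23, 23 and 461 counts in SHR. Decorin (Dcn), a matrix proteoglycan, had 61.5, 26.9 and 8.39 CPM in WKY and 386, 245 and 1307 CPM in SHR (strain log2 fold change 4.05, SE 1.14, edgeR adjusted p = 0.272). The summed level of the list hides this, since the collagen gene Col1a1, with 3846 to 10878 CPM in WKY and 4560 to 8784 CPM in SHR, made up most of it. Of 10 proliferation markers 7 had a higher level in SHR with an unadjusted p below 0.05, and 0 were called after adjustment by edgeR. In all 10 the strains overlapped. At the same unadjusted threshold, 1 of 3 tested endothelial markers was higher in SHR (Tek, log2 fold change 3.00). So was 1 of 6 tested mesothelial markers (Upk3b, 4.40, SE 1.60). The strains overlapped in Upk3b, which had 23, 6 and 84 counts in WKY and 1, 459 and 3191 counts in SHR. Of 8 tested smooth muscle markers 2 were lower in SHR (Myocd, -1.65, and Myh11, -1.49), and of 2 macrophage markers 0 differed. The part of these transcripts in the strain differences of the antioxidant genes was not tested.

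More members differed between batches. With the strain as a term, 19 of the 48 members were lower in batch 2 (39.6%, against 22.5% of all genes) and 8 were higher (16.7%, against 21% of all genes). The libraries of batch 2 lay below all those of batch 1 in 17 members (35.4%, against 30.4% of all genes) and above them in 6 (12.5%, against 27.2%). The lower group held 4 of the 6 peroxiredoxin genes (Prdx1, Prdx3, Prdx4 and Prdx5) and 4 of the 5 genes of thioredoxins and their reductases (all but Txnrd3), and the higher group Sod3 and the glutathione transferase genes Gstm1, Gstm2, Gstm7, Gstt1, Gstt2, Gsta6 and Mgst3. DESeq2 called the same 19 lower (against 25.1% of all genes), and the same 8 and Gstz1 higher (9 in all, against 25.9% of all genes). With 1 library left out, 13 members were lower without WKY replicate 1 (27.1% of members, against 19.1% of all genes). Without WKY replicate 2 there were 12 (25%, against 18%), and without WKY replicate 3 there were 9 (18.8%, against 17.4%). Without SHR replicate 1, 2 or 3 there were 11 (22.9%, against 17%), 13 (27.1%, against 16.6%) and 15 (31.2%, against 16.1%). Higher members numbered 5 without WKY replicate 1 (10.4%, against 18.2%) and 9 without WKY replicate 3 (18.8%, against 13.5%). In the other fits 6 or 7 were higher (12.5% to 14.6%, against 15.1% to 16.5%). The share of lower members was thus near that of all genes without WKY replicate 3. In the fit of all libraries and in all 6 of those fits, 9 members were lower (Gpx8, Gsr, Gsto1, Prdx1, Prdx3, Prdx5, Srxn1, Txn1 and Txnrd1; 18.8%, against 11.8% of all genes) and 3 were higher (Gstm1, Gstm2 and Sod3; 6.25%, against 8.63%). The median log2 fold change of the members, batch 2 over batch 1, was -0.11, beside a value of -0.00149 for all genes.

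Other transcripts moved with the batch. All 10 proliferation markers were lower in batch 2 (against 22.5% of all genes), their sum being 944 to 1344 CPM in batch 1 and 127 to 180 CPM in batch 2. Of 8 tested smooth muscle markers 6 were higher in batch 2 (against 21% of all genes). Their list summed to 749 to 904 CPM in batch 1 and to 8148 and 1887 CPM in batch 2 of WKY and SHR. Of 9 fibroblast markers 3 were higher in batch 2, and of 6 tested mesothelial markers 1 was. Of the tested endothelial and macrophage markers 0 were called between batches. The part of these markers in the batch differences of the antioxidant genes was not tested.

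**Figure D1:**
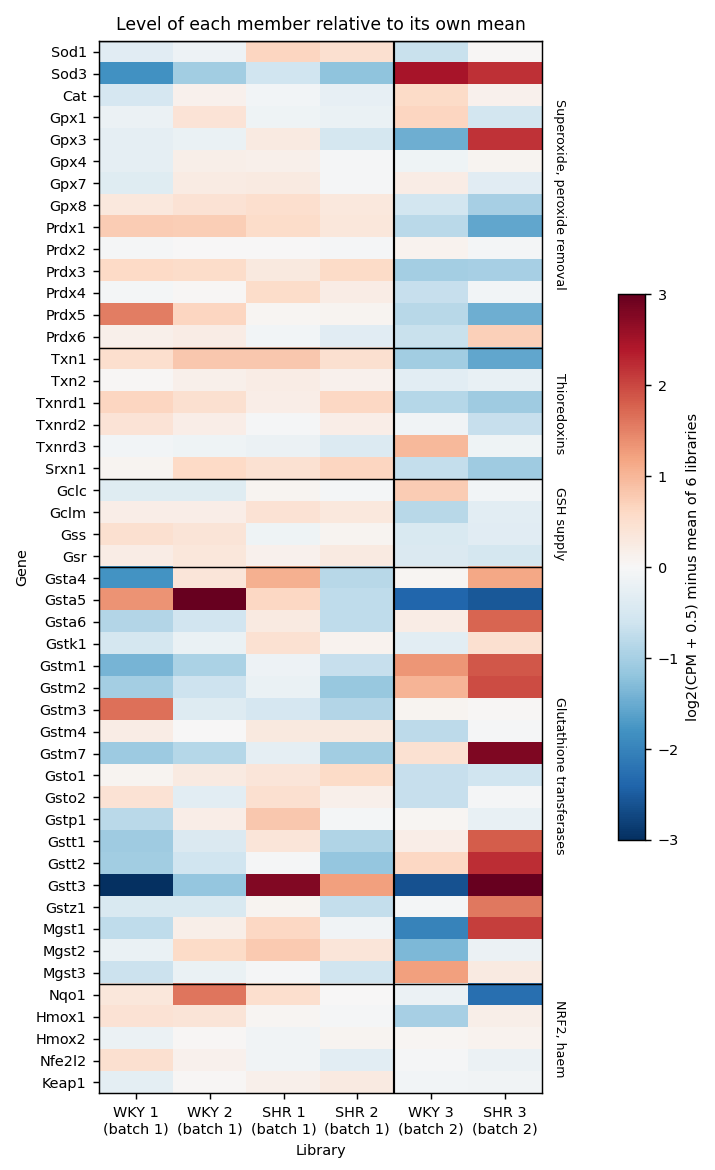
Level of each of the 48 tested members in each library (columns, batch 1 to the left of the line and batch 2 to its right), as log2(CPM + 0.5) minus the mean of that gene over the 6 libraries. Colours stop at 3 and -3. The Prdx1, Prdx3, Prdx5, Txn1 and Txnrd1 rows turn from red to blue at the batch line, while Sod3, Gstm1 and Gstm2 turn from blue to red, and Gstt3 alternates with the strain.

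**Figure D2:**
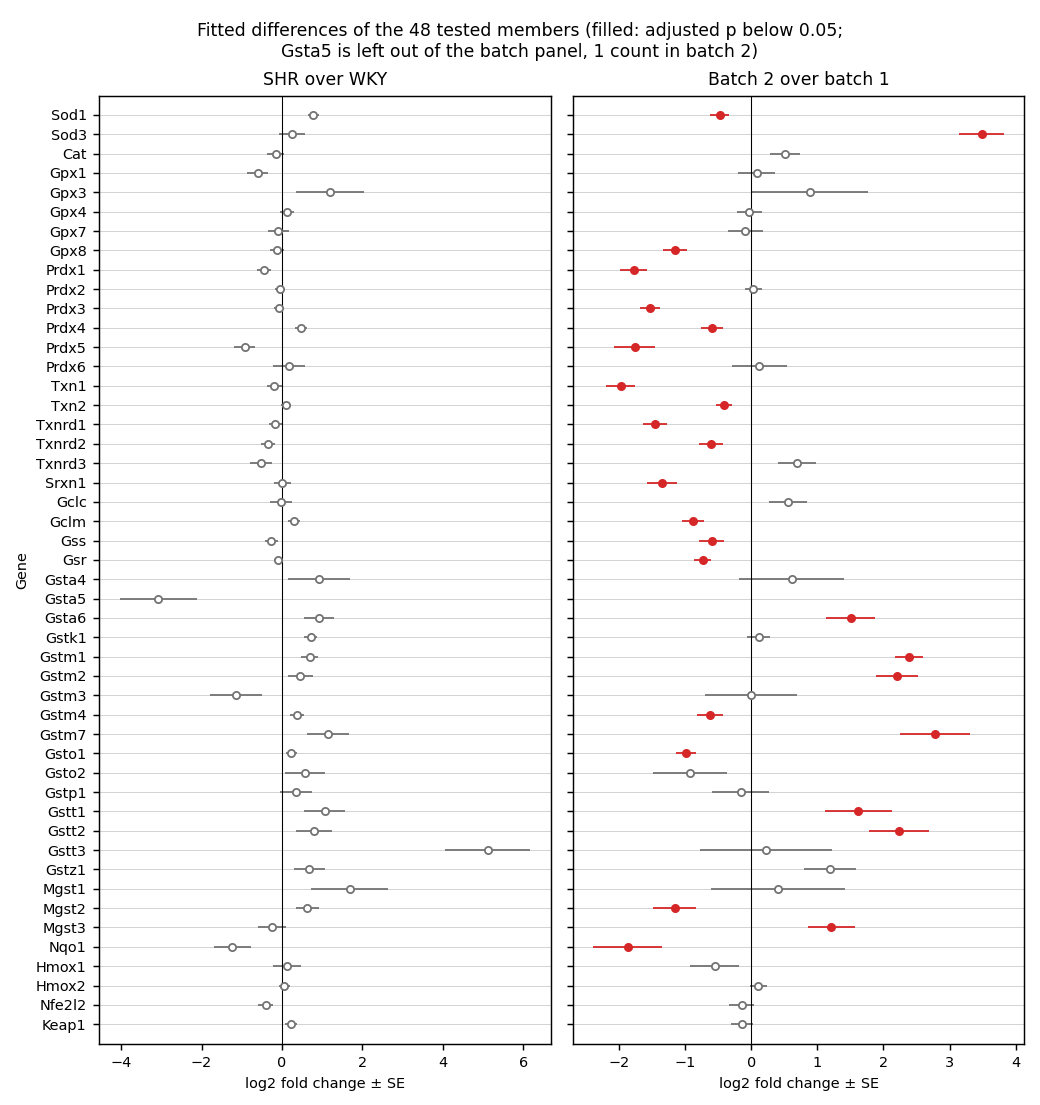
Fitted log2 fold changes with their standard errors (horizontal bars) for SHR over WKY (left) and batch 2 over batch 1 (right), in the order of the members' roles. No point of the strain panel is filled, whereas 26 points of the batch panel are, with the called Gsta5 left out because batch 2 held 1 count of it.

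The cytosolic copper-zinc superoxide dismutase gene Sod1 (gene identifier 24786) was the member with the smallest p between strains. It had 129, 148 and 103 CPM in WKY replicates 1, 2 and 3, and 259, 229 and 169 CPM in SHR replicates 1, 2 and 3. Each SHR library lay above each WKY library, and within each strain the batch 2 library was the lowest. The mean was 127 ± 22.6 CPM in WKY against 219 ± 46.0 CPM in SHR (SD, n = 3 each). The fitted log2 fold change was 0.78 (SE 0.14), or 1.72-fold, with 0.82 in batch 1 and 0.71 in batch 2. It did not pass edgeR after adjustment (unadjusted p = 0.0015, edgeR adjusted p = 0.13), and DESeq2 called it (DESeq2 adjusted p = 2.02e-06). In the log2 values the authors deposited, Sod1 was 0.52 higher in SHR. Those values come from the same libraries and lie close to a regularised log with the batch difference removed. They are thus no separate estimate.

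Sod3 (gene identifier 25352), the secreted superoxide dismutase that binds the matrix around vascular cells, followed the batch and not the strain. It stood at 95.3 and 164 CPM in the batch 1 WKY libraries and at 223 and 147 CPM in those of SHR. In batch 2 it stood at 1898 CPM in WKY against 1548 CPM in SHR. Both batch 2 libraries lay far above all others, and the strains overlapped. The batch log2 fold change was 3.49 (SE 0.34, edgeR adjusted p = 0.00184), an 11.2-fold difference that lay between 3.05 and 3.87 on the log2 scale when any 1 library was left out. Between strains the log2 fold change was 0.24 (SE 0.32, edgeR adjusted p = 0.778). Sod1 went the opposite way between batches, with a log2 fold change of -0.48 (SE 0.15, edgeR adjusted p = 0.0448). That call was lost on leaving out any 1 library. Catalase, which splits hydrogen peroxide in peroxisomes, had 188 ± 67.6 CPM in WKY against 164 ± 20.7 CPM in SHR and was called in neither comparison.

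Among glutathione peroxidases, the secreted plasma form Gpx3 (gene identifier 64317) varied most. It had 1282, 1342 and 558 CPM in WKY replicates 1, 2 and 3, and 1845, 1075 and 6960 CPM in SHR replicates 1, 2 and 3. The batch 2 SHR library stood above all others and gave 0.671% of its counts to this gene, against 0.0486% in the batch 2 WKY library, which was the lowest. The strain log2 fold change was 1.19 (SE 0.84, edgeR adjusted p = 0.597), and 0.15 within batch 1, where the strains overlapped. Gpx1, the cytosolic form, had 237, 360 and 425 CPM in WKY and 247, 234 and 185 CPM in SHR, and Gpx4, which reduces lipid peroxides in membranes, had 284 ± 47.7 and 311 ± 18.4 CPM. Neither was called between strains or batches. Of the forms of the endoplasmic reticulum, Gpx8 was lower in batch 2 (log2 fold change -1.16, SE 0.19, edgeR adjusted p = 0.00598), from 297 to 338 CPM in batch 1 to 121 to 163 CPM, while Gpx7 had 120 ± 27.1 CPM in WKY against 113 ± 24.2 CPM in SHR and was not called. Some counts of Gpx8 were not whole, as when reads are divided between similar transcripts.

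Peroxiredoxins fell into those lower in batch 2 and those that were not called. Prdx1, a cytosolic peroxiredoxin and NRF2 target, had 622 and 612 CPM in batch 1 WKY, 544 and 464 CPM in batch 1 SHR, and 211 and 124 CPM in the batch 2 libraries of WKY and SHR. The mitochondrial Prdx3 had 96.7 to 120 CPM in batch 1 and 38.4 and 39.2 CPM in batch 2. In both genes the batches did not overlap. The batch log2 fold changes were -1.78 for Prdx1 (SE 0.20, edgeR adjusted p = 0.00248) and -1.53 for Prdx3 (SE 0.15, edgeR adjusted p = 0.00193). Prdx5, found in mitochondria, peroxisomes and cytosol, fell by 1.76 on the log2 scale (SE 0.30, edgeR adjusted p = 0.00745), and Prdx4, the form of the secretory pathway, by 0.59 (SE 0.16, edgeR adjusted p = 0.0332). The Prdx4 call held in 1 of the 6 fits without a library, that without SHR replicate 2. Prdx2, another cytosolic form, was the steadiest peroxiredoxin, with 204 to 226 CPM over the 6 libraries.

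Between strains, 3 peroxiredoxin genes had an unadjusted p below 0.05. Prdx4 (gene identifier 85274) had 170, 183 and 110 CPM in WKY and 262, 209 and 167 CPM in SHR replicates 1, 2 and 3. SHR was higher within both batches, although the batch 2 SHR library lay below the batch 1 WKY libraries. Its log2 fold change was 0.48 (SE 0.15, edgeR adjusted p = 0.295), and DESeq2 called it (DESeq2 adjusted p = 0.0404). Prdx5 (gene identifier 113898) went the other way, with 575, 311 and 111 CPM in WKY and 208, 211 and 71.9 CPM in SHR. WKY replicate 1 stood apart, and SHR was lower within both batches. The log2 fold change was -0.93 (SE 0.27, edgeR adjusted p = 0.266), became -0.60 without WKY replicate 1, and was called by DESeq2 (DESeq2 adjusted p = 0.033). For Prdx1 the log2 fold change was -0.45 (SE 0.18, edgeR adjusted p = 0.368), and DESeq2 did not call it (DESeq2 adjusted p = 0.153).

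**Figure D3:**
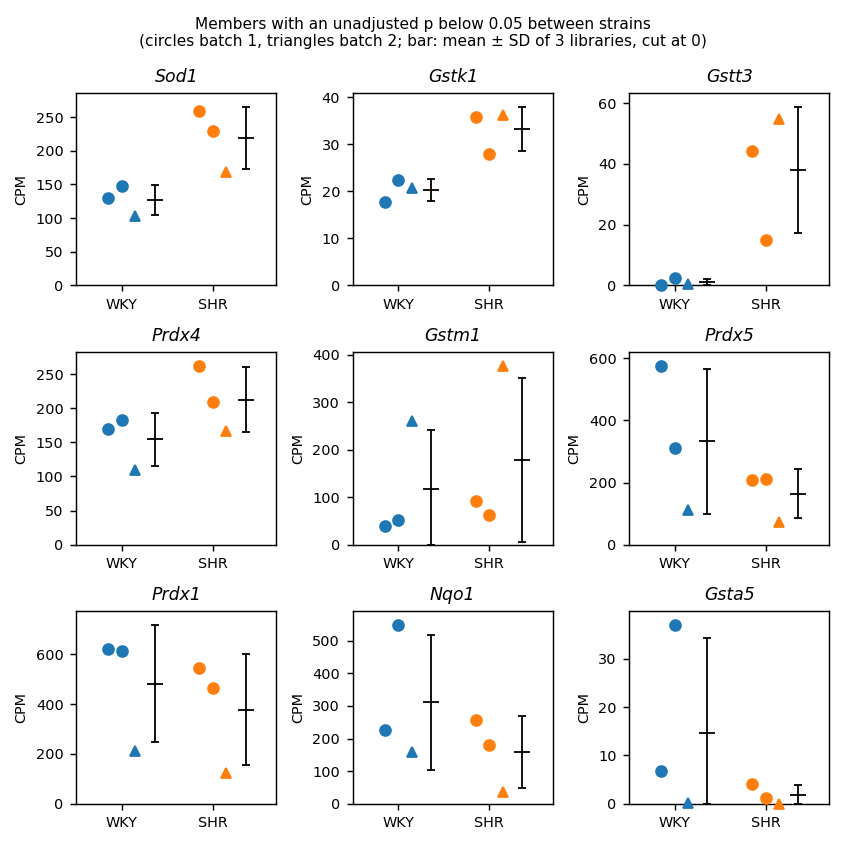
CPM (vertical axis, from 0) of the 9 members with an unadjusted p below 0.05 between strains, with 1 point per library and the mean ± SD of 3 libraries beside them. Only Sod1, Gstk1 and Gstt3 show no overlap of the strains. The batch 2 library (triangle) sets much of the spread in Gstm1 and Prdx1, whereas a batch 1 library of WKY stands apart in Prdx5, Nqo1 and Gsta5.

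The thioredoxin system was lower in batch 2 in both its cytosolic and its mitochondrial branch. Only the cytosolic calls held with any 1 library left out. Txn1, the cytosolic thioredoxin, had 66.8 to 85.3 CPM in the 4 batch 1 libraries and 23.3 and 16.0 CPM in batch 2 of WKY and SHR. Its reductase Txnrd1, a selenoprotein, had 210, 189, 154 and 206 CPM in WKY replicates 1 and 2 and SHR replicates 1 and 2, and 74.3 and 64.0 CPM in batch 2. Srxn1, the sulfiredoxin that repairs overoxidised peroxiredoxins, had 60.3 to 88.2 CPM in batch 1 and 34.2 and 26.8 CPM in batch 2. In all 3 genes every batch 2 library lay below every batch 1 library and the strains overlapped. The batch log2 fold changes were -1.98 for Txn1 (SE 0.22, edgeR adjusted p = 0.00239), -1.46 for Txnrd1 (SE 0.18, edgeR adjusted p = 0.003) and -1.36 for Srxn1 (SE 0.23, edgeR adjusted p = 0.00669).

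The mitochondrial partners Txn2 and Txnrd2 differed less, by -0.41 (SE 0.12) and -0.62 (SE 0.18) on the log2 scale, and both calls were lost on leaving out any 1 library. Txnrd3, best known from testis, was not called (8.48 ± 4.23 CPM in WKY against 5.48 ± 0.60 CPM in SHR). Txnip, the thioredoxin-binding inhibitor, went the opposite way to thioredoxin, with 138 to 277 CPM in batch 1 and 861 and 1361 CPM in batch 2 (log2 fold change 2.45, edgeR adjusted p = 0.00144). Between strains the log2 fold changes of the 5 thioredoxin and reductase genes and Srxn1 lay between -0.53 for Txnrd3 and 0.10 for Txn2, and none was called by edgeR or DESeq2.

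The enzymes that make and reduce glutathione did not move as 1 group. Gclm, the modifier subunit of glutamate-cysteine ligase, had 19.8 to 23.1 CPM in batch 1 and 9.33 and 13.7 CPM in batch 2 of WKY and SHR (log2 fold change -0.88, SE 0.17, edgeR adjusted p = 0.0097), a call lost without WKY replicate 3 (edgeR adjusted p = 0.0534). Gsr, the reductase that restores oxidised glutathione, had 65.8 to 76.2 CPM in batch 1 and 44.1 and 41.3 CPM in batch 2 (log2 fold change -0.74, SE 0.13, edgeR adjusted p = 0.00722). Gss, glutathione synthetase, was also lower in batch 2 (log2 fold change -0.60, SE 0.18, edgeR adjusted p = 0.0446), but the call held only without SHR replicate 3, and the log2 fold change was -0.32 without WKY replicate 3 and -0.91 without SHR replicate 3. Gclc, the catalytic subunit, did not share this: it had 87.7 and 88.1 CPM in batch 1 WKY and 193 CPM in batch 2 WKY, against 120, 108 and 106 CPM in SHR replicates 1, 2 and 3. It was not called between batches (log2 fold change 0.56, SE 0.29, edgeR adjusted p = 0.166). Between strains, none of the 4 genes had an unadjusted p below 0.05.

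Promoters are shown here because members with the same batch difference could be compared for the antioxidant response element. The core motif TGACNNNGC was searched on both strands, from 250 bases before to 50 bases after each start, in RefSeq sequences of the GRCr8 assembly, which comes from a strain other than SHR and WKY. A promoter was found for 41 of the 50 members. The motif was present in 11 of these 41 (26.8%) and in 13.1% of the 27457 genes of the promoter table. It was present in 5 of the 16 members lower in batch 2 that had a promoter (31.25%). It was also present in 1 of 5 that were higher (20%) and in 5 of the other 20 (25%). Those other carriers were Gpx2, Gstp1, Gstz1, Hmox2 and Nfe2l2. Nqo1, Srxn1 and Txn1, which were lower in batch 2, held no match. The motif was thus not particular to the lower members. A match describes these letters only. Among the lower members with a match were the cytosolic thioredoxin reductase, peroxiredoxin 1, peroxiredoxin 5 and the modifier subunit of glutamate-cysteine ligase. The higher member with a match was Gstm7. The fifth lower member was Prdx4, whose match lies after the start and is not printed. The matches are printed 5′ to 3′ on the strand that carries the motif, with the motif in capitals and 15 bases on each side, at chr7:22755959-22755997 (plus strand), chr5:135383756-135383794 (minus strand), chr1:213532005-213532043 (plus strand, across the start), chr2:213031948-213031986 (minus strand) and chr2:198260310-198260348 (minus strand).
Txnrd1: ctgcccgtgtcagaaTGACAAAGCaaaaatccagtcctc
Prdx1: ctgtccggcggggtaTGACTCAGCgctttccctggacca
Prdx5: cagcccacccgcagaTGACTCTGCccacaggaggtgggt
Gclm: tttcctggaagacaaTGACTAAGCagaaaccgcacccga
Gstm7: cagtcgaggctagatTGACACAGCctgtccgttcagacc

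Glutathione transferases of the mu class, the Gstm genes, lie side by side in the rat genome and resemble each other in sequence, so that reads can be given to the wrong copy. All their counts were whole numbers, as for genes whose reads were not divided between copies. The Gstm3 row carries a gene identifier (108348148) that the RefSeq table used here does not hold, so that row is named as the authors' file names it. Gstm1 and Gstm2, which are neighbours, rose together in batch 2 and are shown here with the 250 bases before their starts, on the minus strand at chr2:198343384-198343633 and chr2:198316918-198317167 of GRCr8. Neither held the motif in the window searched.
Gstm1: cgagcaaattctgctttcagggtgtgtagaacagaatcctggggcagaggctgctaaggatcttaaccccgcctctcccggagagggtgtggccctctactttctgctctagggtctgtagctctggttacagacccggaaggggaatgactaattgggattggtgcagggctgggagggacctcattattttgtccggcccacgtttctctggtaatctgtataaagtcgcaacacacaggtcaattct
Gstm2: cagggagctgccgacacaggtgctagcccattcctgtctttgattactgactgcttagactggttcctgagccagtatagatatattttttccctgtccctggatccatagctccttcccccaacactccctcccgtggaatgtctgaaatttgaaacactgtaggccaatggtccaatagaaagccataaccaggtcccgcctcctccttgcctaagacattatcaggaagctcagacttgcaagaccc

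Gstm1 (gene identifier 24423) had 38.9, 52.8 and 260 CPM in WKY replicates 1, 2 and 3, and 92.8, 63.0 and 376 CPM in SHR replicates 1, 2 and 3. Gstm2 (gene identifier 24424) had 91.9, 122 and 379 CPM in WKY and 163, 85.0 and 723 CPM in SHR. In both genes the batch 2 library was the highest of its strain, and the strains overlapped. The batch log2 fold changes were 2.39 (SE 0.22, edgeR adjusted p = 0.00157) and 2.20 (SE 0.32, edgeR adjusted p = 0.0044), and both genes were called with any 1 library left out. Within batches SHR was above WKY in Gstm1 in every library (log2 fold change 0.69, SE 0.21, unadjusted p = 0.0192, edgeR adjusted p = 0.287). For Gstm2 the batch 1 libraries of the strains overlapped (log2 fold change 0.45, SE 0.31, edgeR adjusted p = 0.584).

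Gstm7 was low in batch 1, at 1.57 to 3.20 CPM, and had 5.60 CPM in batch 2 WKY and 30.4 CPM in batch 2 SHR (batch log2 fold change 2.78, SE 0.53, edgeR adjusted p = 0.0103), a call lost without SHR replicate 3 (log2 fold change 1.67). Gstm4 was lower in batch 2 (log2 fold change -0.62, SE 0.20, edgeR adjusted p = 0.0492), from 20.0 to 24.3 CPM in batch 1 to 11.2 CPM in WKY against 19.4 CPM in SHR, and held its call in 1 of the 6 fits without a library (-0.33 without WKY replicate 3 and -0.94 without SHR replicate 3). Gstm3 had 103, 24.4 and 34.3 CPM in WKY and 22.5, 17.2 and 33.0 CPM in SHR. WKY replicate 1 stood apart there, and gave 39.8% of its Gstm counts to Gstm3 against 2.79% to 11.1% in the other libraries. The sum of all Gstm rows does not depend on how reads were split between copies. It was 258, 221 and 690 CPM in WKY replicates 1, 2 and 3, and 306, 191 and 1181 CPM in SHR. The sum was higher in batch 2 (log2 fold change 1.90, SE 0.27, edgeR adjusted p = 0.00413) and did not differ beyond its spread between strains (log2 fold change 0.29, SE 0.26, edgeR adjusted p = 0.674), with 0.05 in batch 1 and 0.77 in the single libraries of batch 2.

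**Figure D4:**
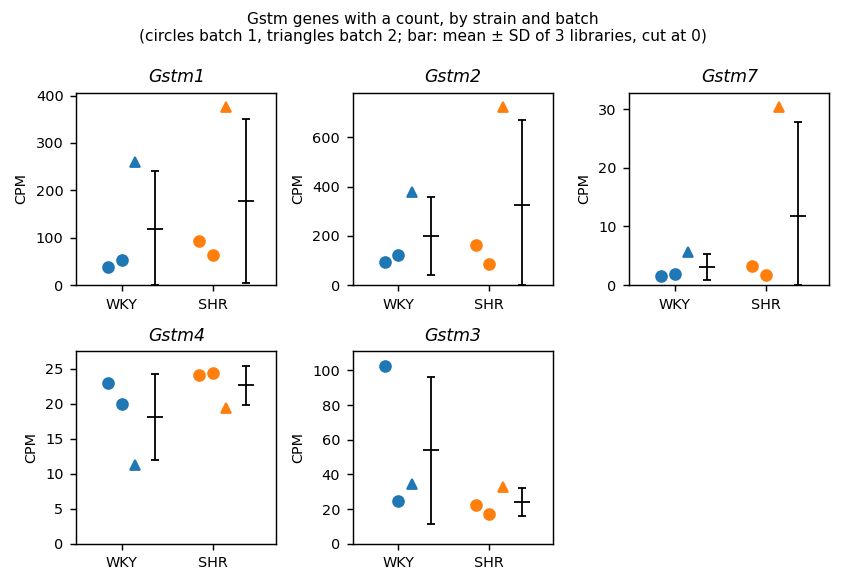
CPM (vertical axis, from 0) of the 5 Gstm genes with counts, with 1 point per library, circles for batch 1 and triangles for batch 2, and the mean ± SD of 3 libraries. Gstm1, Gstm2 and Gstm7 are highest in batch 2 of each strain, Gstm4 is lowest there, and Gstm3 stands out in 1 WKY library.

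The theta-class transferase gene Gstt3 (gene identifier 499422) had the largest strain difference of the members. It had 0.15, 2.43 and 0.56 CPM in WKY replicates 1, 2 and 3, and 44.4, 14.9 and 54.8 CPM in SHR replicates 1, 2 and 3. The strains did not overlap. The WKY libraries held 3, 46 and 9 counts, the SHR libraries 845, 293 and 1054. The log2 fold change was 5.11 (SE 1.06), or 34.6-fold, with 4.53 in batch 1 and 6.60 in batch 2 (unadjusted p = 0.00432, edgeR adjusted p = 0.197), and DESeq2 called it (DESeq2 adjusted p = 0.000969). Its RefSeq neighbours Gstt1 and Gstt2 showed another pattern, with overlapping strains and higher levels in batch 2. Gstt1 had 1.51, 2.64 and 4.35 CPM in WKY and 4.99, 1.78 and 14.5 CPM in SHR. Gstt2, some of whose counts were not whole, had 3.38, 4.76 and 11.9 CPM in WKY and 7.30, 3.06 and 36.8 CPM in SHR. The batch log2 fold changes were 1.62 (SE 0.51, edgeR adjusted p = 0.0478) and 2.24 (SE 0.45, edgeR adjusted p = 0.0127). The Gstt1 call held in 1 of the 6 fits without a library, that without WKY replicate 2, and its log2 fold change was 1.06 without SHR replicate 3. The Gstt2 call was lost without SHR replicate 3 (log2 fold change 1.54).

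Gstk1 (gene identifier 297029), the kappa-class transferase of mitochondria and peroxisomes, was the third member whose strains did not overlap. It had 17.8, 22.3 and 20.7 CPM in WKY and 35.7, 27.9 and 36.1 CPM in SHR, and hardly differed between batches (log2 fold change 0.12, SE 0.18). The strain log2 fold change was 0.71 (SE 0.17), or 1.64-fold, with 0.67 in batch 1 and 0.80 in batch 2 (edgeR adjusted p = 0.215), and DESeq2 called it (DESeq2 adjusted p = 0.0153). Within the leave-one-out fits it lay between 0.63 and 0.82.

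In the alpha class, Gsta5 (gene identifier 494499) had 6.87, 36.9 and 0.06 CPM in WKY and 3.99, 1.22 and 0 CPM in SHR. Its level was thus nearly confined to batch 1, where WKY replicate 2 stood apart. Batch 1 held 934 counts and batch 2 held 1, a ratio of 426 per unit of library (exact 95% interval 76.3 to 16855, counting error only), and edgeR called it lower in batch 2 (edgeR adjusted p = 0.0119), a call lost without WKY replicate 3 or SHR replicate 3. The strain log2 fold change was -3.07 (SE 0.96, edgeR adjusted p = 0.299) and -1.52 without WKY replicate 2, while DESeq2 called it (DESeq2 adjusted p = 0.0236). Gsta6 went the other way between batches, with 6.06, 7.72 and 13.6 CPM in WKY and 14.1, 6.63 and 40.3 CPM in SHR (batch log2 fold change 1.51, SE 0.37, edgeR adjusted p = 0.0236). This call was lost without WKY replicate 1, SHR replicate 1 or SHR replicate 3, and the log2 fold change was 0.98 without the last. Gsta4, which acts on lipid peroxidation products and neighbours Gsta5, had 2.17, 11.5 and 9.14 CPM in WKY and 18.9, 4.74 and 20.4 CPM in SHR and was called in neither comparison.

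Gstp1, the pi-class transferase, had 291, 578 and 532 CPM in WKY and 892, 486 and 436 CPM in SHR. SHR replicate 1 was the highest library and the strains overlapped (log2 fold change 0.35, SE 0.40, edgeR adjusted p = 0.738). Gsto1, an omega-class transferase with thioltransferase activity, was lower in batch 2, with 94.0 to 133 CPM in batch 1 and 54.2 and 57.9 CPM in batch 2 (log2 fold change -0.99, SE 0.15, edgeR adjusted p = 0.00507). Gsto2 had at most 1.47 CPM. Gstz1, an enzyme of tyrosine breakdown, had 19.8, 19.9 and 26.2 CPM in WKY and 29.0, 16.6 and 82.5 CPM in SHR, and was called in neither comparison by edgeR (batch log2 fold change 1.19, SE 0.39, edgeR adjusted p = 0.0558) but between batches by DESeq2.

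The membrane-bound transferases differed from each other. Mgst2 was lower in batch 2 (log2 fold change -1.16, SE 0.33, edgeR adjusted p = 0.0355), with 60.2, 103 and 27.0 CPM in WKY and 120, 88.8 and 61.4 CPM in SHR, a call lost without WKY replicate 3 (log2 fold change -0.78) or SHR replicate 1. Mgst3 was higher there (log2 fold change 1.21, SE 0.36, edgeR adjusted p = 0.0391), although its highest level was only 16.2 CPM, in batch 2 WKY. Its call held in 2 of the 6 fits without a library, those without SHR replicate 1 and SHR replicate 3, and its log2 fold change was 0.60 without WKY replicate 3. Mgst1 had 3.79, 7.67 and 1.31 CPM in WKY and 10.8, 6.27 and 30.3 CPM in SHR, and was called in neither comparison.

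Nqo1 (gene identifier 24314), the quinone reductase that is a standard readout of NRF2, had 228, 547 and 160 CPM in WKY and 257, 181 and 37.3 CPM in SHR. WKY replicate 2 was the highest library and batch 2 SHR the lowest. The strain log2 fold change was -1.24 (SE 0.46, unadjusted p = 0.039, edgeR adjusted p = 0.359), and DESeq2 did not call it (DESeq2 adjusted p = 0.0807). Nqo1 was lower in batch 2 (log2 fold change -1.87, SE 0.52, edgeR adjusted p = 0.0357), a call that held in 1 of the 6 fits without a library, that without WKY replicate 1. Nfe2l2 itself had 410, 322 and 287 CPM in WKY and 270, 233 and 260 CPM in SHR, the member whose WKY libraries all lay above those of SHR (log2 fold change -0.41, SE 0.18, edgeR adjusted p = 0.416). Keap1 had 47.3 ± 5.47 CPM in WKY against 55.6 ± 7.30 CPM in SHR. Hmox2, the constitutive haem oxygenase, had 33.4 to 40.3 CPM over all libraries. Neither Nfe2l2, Keap1 nor Hmox2 was called in either comparison.

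In 5 members the batch difference depended on the strain by the DESeq2 interaction test, 4 with a more positive difference in SHR (8.33% of members, against 1.89% of all genes) and 1 with a more negative one (2.08%, against 1.75%). The edgeR interaction test called 0 members and 0% of all genes, with 2 residual degrees of freedom, and 6 members and 1 member had an unadjusted p below 0.05 (12.5% and 2.08%, against 5.44% and 7.22% of all genes). Batch 2 held 1 library of each strain, so the strain and the library cannot be told apart there. Gpx3 was lower in batch 2 than in batch 1 in WKY (log2 fold change -1.23) and higher in SHR (2.25). Mgst1 followed the same pattern (-2.13 and 1.83). Prdx6, which reduces phospholipid peroxides, had 290, 303 and 165 CPM in WKY and 247, 204 and 425 CPM in SHR, or -0.85 and 0.91 between batches. Hmox1, the inducible haem oxygenase, had 93.2, 89.9 and 34.1 CPM in WKY and 72.0, 66.8 and 77.9 CPM in SHR (-1.43 and 0.17). Gclc was the one with the opposite order (1.13 in WKY and -0.10 in SHR). Prdx6 and Mgst1 were chosen for description after their values were seen.

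The batch 2 libraries also differed in markers. Mesothelial markers summed to 174 CPM in batch 2 WKY and 1370 CPM in batch 2 SHR, against 340 to 679 CPM in batch 1, and smooth muscle markers to 8148 and 1887 CPM. Their part in the 5 members' patterns was not tested.

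**Figure D5:**
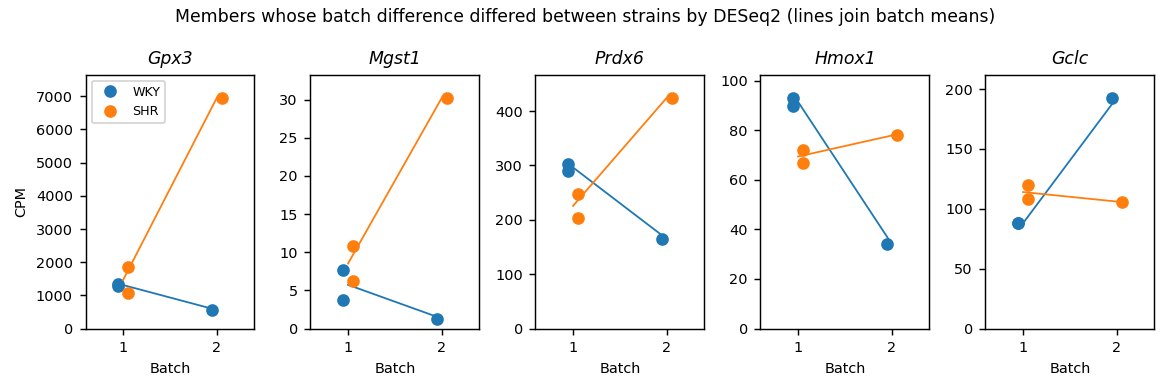
CPM (vertical axis, from 0) against batch for the 5 members that DESeq2 called for a batch difference depending on strain, with 1 point per library and lines joining the batch means of each strain. In Gpx3, Mgst1, Prdx6 and Hmox1 the WKY line is lower and the SHR line higher in batch 2, and Gclc shows the reverse order.

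The other genes of the pathway were taken from lists of 115 genes, of which 110 were in the table and 97 passed the filter on low counts. Between strains, edgeR called 0 higher and 0 lower, and before adjustment 7 had p below 0.05 with a higher and 9 with a lower level, beside 6.1% and 7.18% of all genes. Among 10 genes for NADPH supply and cystine import, Taldo1, an enzyme of the pentose phosphate pathway, had 164 ± 27.8 CPM in WKY against 129 ± 41.7 CPM in SHR (strain log2 fold change -0.39, SE 0.15, edgeR adjusted p = 0.362). Among 14 genes of conjugation, export and quinone handling, Aldh3a1, an aldehyde dehydrogenase, had 8.84, 5.76 and 1.87 CPM in WKY and 34.9, 36.2 and 47.5 CPM in SHR (strain log2 fold change 2.98, SE 0.56, edgeR adjusted p = 0.163), and the export pump gene Abcc3 had 27.6 ± 6.15 and 16.9 ± 0.77 CPM. The strains did not overlap in either gene. Over all genes tested, SHR lay above WKY in 4.51% and WKY above SHR in 5.3%. The genes of each list were named for their small p between strains, so this is no result about the list.

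Of 13 tested regulator genes, Mafg, a partner of NRF2 on DNA, had 96.8 ± 14.9 CPM in WKY against 67.3 ± 9.15 CPM in SHR (log2 fold change -0.53, SE 0.15, edgeR adjusted p = 0.265), and Sesn2 had 90.2 ± 44.5 and 44.2 ± 17.4 CPM. In glutathione breakdown and recycling, Oplah, the oxoprolinase that returns glutamate, had 15.2, 16.0 and 27.9 CPM in WKY and 36.3, 27.9 and 116 CPM in SHR (strain log2 fold change 1.38, SE 0.25, edgeR adjusted p = 0.141), and Ggt7 had 0.40 ± 0.16 and 6.72 ± 8.32 CPM. In each of these 4 genes, also named for their small p between strains, the strains did not overlap, in Oplah by less than the digits printed. The shares over all genes tested were 4.51% with SHR above and 5.3% with WKY above. The haem and iron list named Blvrb (76.4 ± 18.8 and 55.8 ± 1.91 CPM) and Blvra (40.0 ± 19.4 and 35.2 ± 18.2 CPM), both biliverdin reductases. The oxidant source list named Cyba, a subunit of NADPH oxidases (69.3 ± 24.4 and 59.7 ± 26.3 CPM), and Xdh, xanthine dehydrogenase, with 101, 173 and 83.9 CPM in WKY and 245, 154 and 801 CPM in SHR. Glrx, a glutaredoxin, had 350 ± 224 and 209 ± 108 CPM. The selenoprotein list named Pstk (4.41 ± 0.995 and 7.04 ± 1.80 CPM) and Dio2 (2.91 ± 2.83 and 11.8 ± 15.7 CPM), and the metallothionein list Mtf1 (15.8 ± 1.61 and 17.3 ± 1.97 CPM) and Mt1m (1.15 ± 0.96 and 1.48 ± 0.84 CPM). None of these had an edgeR adjusted p below 0.05 between strains.

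Between batches, 29 of the 97 genes were lower (against 22.5% of all genes) and 13 higher (against 21%) in batch 2. Among glutaredoxins, sulfoxide reductases and thioredoxin partners 7 of 13 were lower and 2 higher (median log2 fold change -0.67), and among genes of selenoprotein synthesis and other selenoproteins 8 of 17 were lower and 2 higher (median -0.59). The oxidant source list had 3 of 10 higher and 2 lower (median 0.31), beside a value of -0.00149 for all genes. Glrx was among the lower, with 240 to 537 CPM in batch 1 and 101 and 89.7 CPM in batch 2 of WKY and SHR (log2 fold change -1.89, edgeR adjusted p = 0.00354). Blvra was lower as well, with 43.2 to 53.6 CPM in batch 1 and 17.8 and 14.3 CPM in batch 2.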

How the data were processed

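RNA from 6 libraries was sequenced. The authors deposited a table of estimated counts by gene and library without normalization, of which 8.96% of values were not whole (tolerance 0.001) and were rounded here. Per the submitters' processing notes, the tools were RSEM 1.2.28, Bowtie2 2.4.4 and DESeq2 1.42.1 and the build Rnor_6.0, with no roles given. How strand and gene copies were counted was not given in the sources used here. In a further table of log2 values the authors deposited, 95.9% lay within 0.01 of a regularised log of the counts after removal of the batch difference, so how it was made is inferred.

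Genes were filtered with filterByExpr and scaled by TMM. The two-sided quasi-likelihood F-test of edgeR 4.0.16 (R 4.3.3) had the terms strain and batch and 3 residual degrees of freedom. Adjustment was by Benjamini-Hochberg over all 12614 genes tested, with calls at an adjusted p below 0.05. Standard errors (SE) were derived from each F statistic and fold change. Alternatives were DESeq2 1.42.0, its size factors, limma 3.58.1, no filter, no batch term, the replicate block, batch 1 alone and each library left out. Simulated counts with known changes served to check the test code.

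Same-numbered libraries of the strains deviated together from the strain means (correlations 0.30, 0.40 and 0.66 for replicates 1, 2 and 3), and replicate 3 of both strains is batch 2. WKY replicate 1 correlated more with SHR replicate 2 (0.49), and within batch 1 the replicates' differences correlated at -0.20. The members and lists were chosen with earlier results of these data known. Values per library were given for the Gstm genes, for members with an unadjusted p below 0.05 between strains, for the 3 members in each direction with the smallest p between batches, and for the member of each family with the highest mean count. Other members with values per library were chosen after those were seen. In each other list the 2 genes with the smallest p between strains were named, except 1 gene that is not reported here.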

Additional observations from a re-analysis of the deposited data

Results flagged for a closer look

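For 5 members the difference between batches was not the same in the strains by the interaction test of DESeq2. The fitted difference of the batch effect, SHR minus WKY on the log2 scale, was 3.49 for Gpx3 (edgeR adjusted p = 0.16, DESeq2 adjusted p = 1.15e-08), 3.95 for Mgst1 (0.228 and 0.00303), 1.76 for Prdx6 (0.182 and 7.21e-05), 1.59 for Hmox1 (0.151 and 0.000579) and -1.24 for Gclc (0.214 and 0.00762). The edgeR test, which is the main test here, called none of them, and neither did limma-trend (adjusted p 0.116 to 0.204). Each value rests on 1 library of each strain in batch 2.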

How the results depend on the processing

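Log2 fold changes are SHR over WKY for strain and batch 2 over batch 1 for batch. Between strains, 0 members were called higher and 0 lower with size factors of DESeq2, no filter on low counts, limma-trend, no batch term, batch 1 only and any 1 library left out, whereas the DESeq2 Wald test called 4 higher and 2 lower. With the replicate block, 0 members were called higher and 0 lower, and the block changed no other call between strains. For the interaction, the DESeq2 Wald test called 4 higher and 1 lower, and the other alternatives run for it (size factors, no filter, limma-trend) called 0. Between batches, 12 members were lower without a strain term. The share of all genes lower in that fit is not given here, so this count is not itself a result about the members. Leaving out 1 library gave 5 to 9 higher and 9 to 15 lower, in fits with fewer samples.

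The alternatives for single members between batches were chosen after seeing the data. Strain log2 fold changes that changed sign were those of Gclc (0.37 in batch 1 only), Hmox1 (-0.0027 with no batch term and -0.40 in batch 1 only) and Sod3 (-0.17 with no batch term). With 1 library left out, the ranges that crossed 0 were -0.18 to 0.38 for Gclc, -0.0086 to 0.67 for Gstp1, -0.40 to 0.33 for Hmox1, -0.15 to 0.036 for Prdx3 and -0.034 to 0.51 for Sod3. Between batches, Gstm3 was 0.032 with size factors of DESeq2, 0.038 with the DESeq2 Wald test and 0.10 with limma-trend. Leaving out 1 library gave batch ranges of -0.11 to 1.13 for Gclc, -1.23 to 2.24 for Gpx3, -0.89 to 0.73 for Gstm3, -0.67 to 0.29 for Gstp1, -1.19 to 1.04 for Gstt3 and -1.43 to 0.16 for Hmox1. None of these was called in the fit of all 6 libraries, and the cause was not tested. Of the values of single members under the alternatives, 346 between strains and 221 between batches kept their direction and their side of the threshold. Between batches 46 lost the call and 6 gained it, and between strains 6 gained it, all with DESeq2. At 1 library per strain in batch 2, differences within that batch have no replicate, and members with few counts, such as Gstt3 in WKY and Gsta5 in batch 2, are limited by depth.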
